A study of Sus scrofa with 48 samples.

Results

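In the perirenal adipose tissue (PRAT) of pigs, the fat that surrounds the kidney, 8 genes were lower, with partial overlap between pigs, on a high-fat high-fiber diet than on a low-fat high-starch one: TMEM245, TTC7B, C10ORF35, PCBD1, HOMER2, LDHD, CISD1 and CD164. They were chosen for the diet contrast itself, as genes whose array probes stood at the head of all probes when ordered by the t statistic of diet in these pigs. The choice was made on 11 probes, of 38142 kept by the authors, and the 8 genes are among 9424 genes that had a symbol and a kept probe. The differences between diets of these genes are therefore a description and carry no test, whereas the differences between lines and the relations between pigs on the same diet were not used to choose them.

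Pigs were 132 days old and belonged to 2 lines of Large White barrows selected for low residual feed intake (low RFI, named RFIneg in the labels) or high residual feed intake (high RFI, RFIpl). Residual feed intake is the feed eaten beyond that predicted from growth and maintenance, so a low value means a better feed efficiency. Within each line, 12 pigs had free access to the high-fat high-fiber (HF) diet, which held plant oils and wheat straw, and 12 to a low-fat high-starch (LF) diet. Total RNA of each of the 48 pigs was hybridised to 1 one-colour porcine array, and the tissue was taken whole, so that fewer cells of a type and less RNA per cell cannot be told apart.

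The signal of a probe is given on the log2 scale relative to the median of all porcine probes on the same array, so a value of 1 means a signal 2 times the median. The arrays lay on 6 slides of 8, each with 2 arrays of each diet and line group, and were scanned on 2 days. Each array had from 35787 to 38118 kept probes well above background and no saturated one, and the 11 probes of the 8 genes exceeded background on every array. Precision is limited by the number of arrays. Adipocyte markers were bright, and their mean lay between 9.43 and 9.94 in HF pigs and between 9.54 and 9.98 in LF pigs.

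The 8 genes belong to different parts of cell biology. TTC7B is a scaffold subunit of the complex that brings phosphatidylinositol 4-kinase alpha to the plasma membrane. PCBD1 is the carbinolamine dehydratase that recycles tetrahydrobiopterin (BH4), the cofactor of aromatic amino acid hydroxylases, and it also acts as a dimerization cofactor of a homeodomain transcription factor. HOMER2 is an adaptor that links calcium channels and receptors at membranes. LDHD oxidises D-lactate, a product of methylglyoxal detoxification, in mitochondria. CISD1, also called mitoNEET, is an iron-sulfur protein of the outer mitochondrial membrane and a binding partner of insulin-sensitizing drugs. CD164, or endolyn, is a sialomucin of endosomes and the cell surface, TMEM245 is a membrane protein, and C10ORF35 (FAM241B) belongs to a small family of membrane proteins.

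Each array probe is a strand of 60 bases, and the sequence decides which transcript a value stands for. The sequences below, 5′ to 3′ as the scanner files give them, are those of the probes that represent 7 of the 8 genes, each the brightest of the probes that chose its gene. Capitals mark a run of 17 bases that the PCBD1 probe shares with the other PCBD1 probe of the choice.
TMEM245, A_72_P029426: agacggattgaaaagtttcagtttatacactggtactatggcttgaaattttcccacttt
TTC7B, A_72_P170591: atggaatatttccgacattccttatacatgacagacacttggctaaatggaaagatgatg
C10ORF35, A_72_P370743: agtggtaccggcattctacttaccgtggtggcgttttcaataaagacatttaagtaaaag
PCBD1, A_72_P489412: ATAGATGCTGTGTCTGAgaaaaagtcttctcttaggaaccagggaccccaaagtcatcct
HOMER2, A_72_P352623: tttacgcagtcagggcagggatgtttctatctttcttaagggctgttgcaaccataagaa
LDHD, O7218: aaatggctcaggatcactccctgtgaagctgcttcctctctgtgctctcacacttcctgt
CISD1, A_72_P031176: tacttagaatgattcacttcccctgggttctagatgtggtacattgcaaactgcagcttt

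The scanner files give the gene name of the PCBD1, LDHD and CD164 probes directly, name the TMEM245 probe by the older symbol C9orf5, and name the HOMER2 probe by a gene number that the RefSeq pig gene table resolves to HOMER2. The probes of TTC7B, C10ORF35 and CISD1 carry only a transcript identifier there, and their gene names come from the gene lists of the study. The other PCBD1 probe of the choice is shown with the same run of bases in capitals, because probes with bases in common are only partly separate measurements of the gene.
PCBD1, A_72_P154391: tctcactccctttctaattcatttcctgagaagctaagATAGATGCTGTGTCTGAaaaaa

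All 8 genes were lower in HF than in LF pigs, by log2 differences of -1.37 to -0.55 with a median of -0.76, which are 1.46-fold to 2.59-fold reductions. The median difference over all kept probes was -0.023. At a raw p under 0.01, a fold over 1.1 and a Benjamini-Hochberg (BH) adjusted p under 0.08 in limma, 15.5% of all kept probes and 20.3% of all genes at their brightest kept probe were called lower in HF pigs, and the 8 genes are among them by choice. The values of each gene follow, with 24 pigs per diet.

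**Figure D1:**
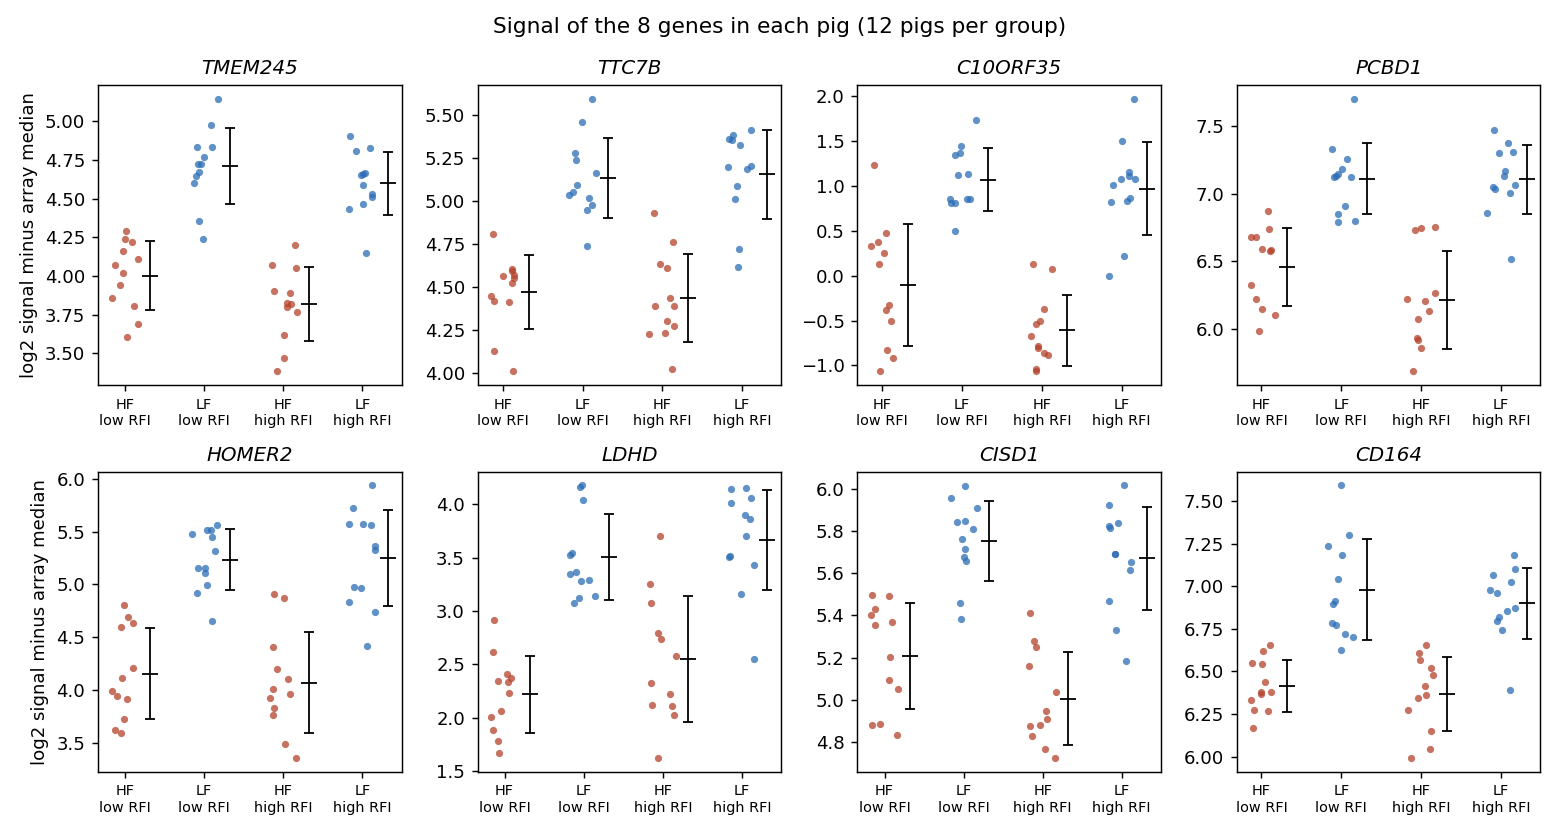
Log2 signal minus the array median (vertical axis) of each gene in each of the 48 pigs, by diet and line (horizontal axis, red for HF and blue for LF), with the group mean and SD (n = 12) beside the points. In both lines the HF means lie below the LF means, and between 4 (TTC7B) and 11 (CD164) of the 24 HF pigs lie within the LF range of a gene. Such counts follow the most extreme pig of the other diet, and only 2 LF pigs lie within the HF range of CD164.

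TMEM245 had the first rank among all 38142 probes. Its log2 signal in HF pigs had a lowest value of 3.38, a median of 3.90 and a highest of 4.29, and in LF pigs 4.15, 4.66 and 5.15. Thus 19 of 24 HF pigs lay below every LF pig, and none exceeded the LF mean. The means were 3.91 ± 0.24 on the HF diet and 4.66 ± 0.23 on the LF diet (SD, n = 24 each), which differed by -0.75 (standard error 0.065). A second probe of the choice, O14274, stood next in the order, with a difference of -0.78 (standard error 0.077) and 21 HF pigs below every LF pig.

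TTC7B, the scaffold of the phosphatidylinositol kinase complex, ranged from 4.01 to 4.93 in HF pigs with a median of 4.44, and from 4.61 to 5.59 in LF pigs with a median of 5.17. Here 20 of 24 HF pigs were below every LF pig, and the groups overlapped in 4 HF and 3 LF pigs. The mean was 4.45 ± 0.23 on the HF diet and 5.14 ± 0.24 on the LF diet (SD, n = 24 each), which differed by -0.69 (standard error 0.069) at rank 3.

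C10ORF35 showed the largest difference of the 8 genes and the widest range in each diet. It ranged from -1.07 to 1.24 in HF pigs with a median of -0.51, and from 0 to 1.97 in LF pigs with a median of 1.04. In 16 HF pigs the value lay below every LF pig, and 23 HF pigs lay below the LF mean. The exception was a low RFI pig, replicate 12 of its group, whose value of 1.24 exceeded the LF median. The means were -0.36 ± 0.60 (SD, n = 24) and 1.02 ± 0.43 (SD, n = 24), a difference of -1.37 (standard error 0.14), or a 2.59-fold reduction. The only kept probe of this gene was dim, with an HF mean below the array median, and its signal was not background-subtracted.

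PCBD1, the BH4 recycling enzyme, was bright in both diets. The brighter probe ranged from 5.69 to 6.87 in HF pigs with a median of 6.24, and from 6.51 to 7.70 in LF pigs with a median of 7.13. The difference of the means was -0.78 (standard error 0.083), from 7.11 ± 0.25 (SD, n = 24) in LF pigs to 6.33 ± 0.34 (SD, n = 24) in HF pigs, with 14 HF pigs below every LF pig and all 24 below the LF mean. Its other probe, which shares those bases, gave -0.79 with 19 HF pigs below every LF pig, so the number of overlapping pigs differed between these probes although the difference did not change beyond its standard error of 0.082.

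HOMER2, the membrane adaptor, ranged from 3.36 to 4.91 in HF pigs with a median of 4.0, and from 4.42 to 5.94 in LF pigs with a median of 5.32. In HF pigs 18 of 24 values lay below every LF pig, and none reached the LF mean. The mean fell from 5.24 ± 0.37 (SD, n = 24) in LF pigs to 4.11 ± 0.45 (SD, n = 24) in HF pigs, a difference of -1.13 (standard error 0.12). The second HOMER2 probe of the choice, A_72_P695063, gave -1.02 (standard error 0.11) and also put 18 HF pigs below every LF pig.

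LDHD, the D-lactate dehydrogenase, ranged from 1.62 to 3.70 in HF pigs with a median of 2.33, and from 2.55 to 4.18 in LF pigs with a median of 3.52. In HF pigs 16 values lay below every LF pig. On the LF side, 9 pigs lay above every HF pig, as against 6 for C10ORF35 and 16 or more for the other genes' probes. High RFI replicate 8 on the HF diet set this count of 9, at 3.70, where the next highest HF pig was at 3.25. No other HF pig exceeded the LF mean. The means were 2.38 ± 0.51 on the HF diet and 3.59 ± 0.44 on the LF diet (SD, n = 24 each), which differed by -1.20 (standard error 0.13), or a 2.30-fold reduction.

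CISD1 ranged from 4.73 to 5.50 in HF pigs with a median of 5.07, and from 5.18 to 6.02 in LF pigs with a median of 5.74. Its mean was 5.11 ± 0.25 on the HF diet and 5.71 ± 0.22 on the LF diet (SD, n = 24 each), which differed by -0.60 (standard error 0.065), with 14 HF pigs below every LF pig. For CD164 the range was 5.99 to 6.66 in HF pigs, with a median of 6.38, and 6.39 to 7.59 in LF pigs, with a median of 6.90. This gene had the smallest difference of the 8, -0.55 (standard error 0.064), from 6.94 ± 0.25 (SD, n = 24) in LF pigs to 6.39 ± 0.19 (SD, n = 24) in HF pigs, and 13 HF pigs lay below every LF pig. The count of 13 was set by the lowest LF pig, at 6.39, where the next lowest was at 6.62. From the other side, 22 LF pigs lay above every HF pig. All 24 HF pigs were below the LF mean for CISD1 and for CD164.

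CD164 also marks the edge of the choice, since its probe stood at rank 27 of all probes. Of the first 27 probes, 22 belonged to the 8 genes, 2 had no symbol and 3 belonged to other named genes. IRAK2, a kinase of interleukin-1 and Toll-like receptor signalling, stood at rank 21 with a difference of -2.22, and PDHA2, a subunit of the pyruvate dehydrogenase family, at rank 24 with -0.52. Just outside, PTGDS, a prostaglandin D synthase, stood at rank 28 with -2.70, the ubiquitin-conjugating enzyme UBE2L3 at rank 33 with -0.35, and PI4KA, the kinase that TTC7B helps to anchor, at rank 34 with -0.29. The order follows the difference divided by its error, so that PTGDS, with a larger difference than any of the 8 genes, came after them.

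The overlap between diets was spread over several pigs. The mean of the 8 genes, as a deviation from the mean of all pigs, lay between -0.81 and 0.050 in HF pigs and between 0.028 and 0.77 in LF pigs, and 23 of 24 HF pigs lay below every LF pig. For each gene, the midpoint between the diet means was taken, and pigs were counted that lay on the side of the other diet. In each diet 15 of 24 pigs had 0 of the 8 genes past the midpoint. The most, 5 genes, were found in low RFI replicate 12 on the HF diet, followed by 4 genes in high RFI replicate 8 on the HF diet and 4 genes in high RFI replicate 9 on the LF diet.

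The differences were found on every slide. Each slide held 4 HF and 4 LF pigs, and in all 48 combinations of slide and gene the HF mean was below the LF mean. Slide 6, which held HF replicates 11 and 12 of both lines, had the smallest difference for 6 of the 8 genes, with a median of -0.58 over the genes, and the other slides had medians between -0.92 and -0.70. HOMER2 fell by 0.58 on slide 6 against 1.08 to 1.44 on the other slides. On scan day 1 the median over the 8 genes was -0.73 and on scan day 2 it was -0.79.

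**Figure D2:**
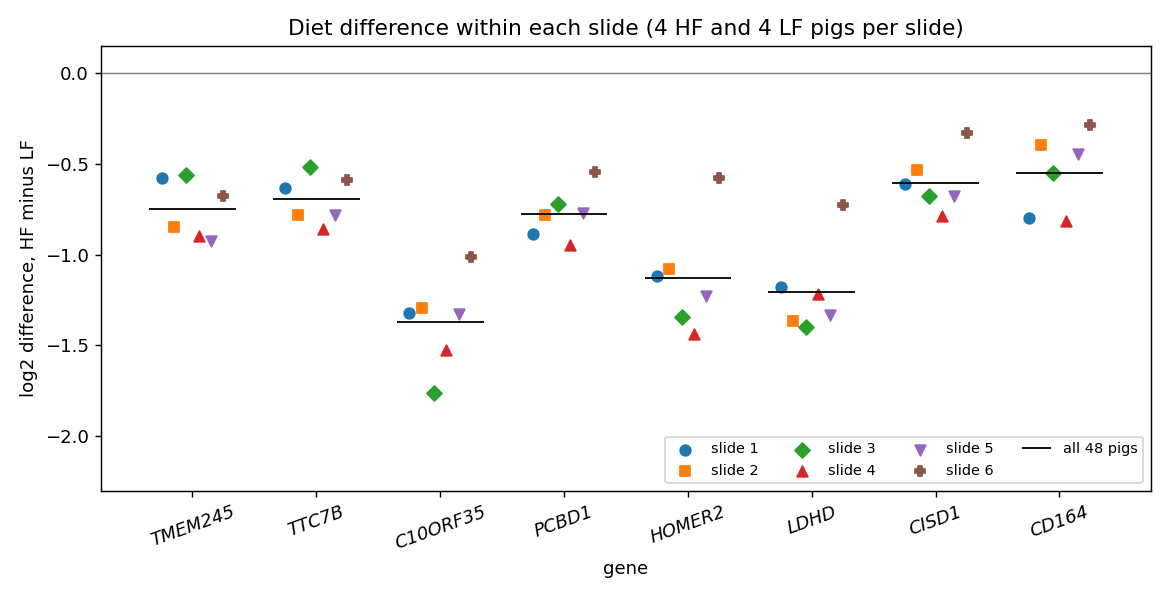
Difference of the mean log2 signal between HF and LF pigs (vertical axis) within each of the 6 slides (symbols) for each gene (horizontal axis), with the difference over all 48 pigs as a line. All 48 points lie below 0, and slide 6 lies nearest to 0 for 6 of the 8 genes.

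Markers of other cells moved with diet beside these genes. Of 8 macrophage markers, 7 were called higher in HF pigs, with a median difference of 0.61 over the list, while 6.78% of all genes were called higher. Their mean lay between 2.72 and 5.18 in HF pigs, with a median of 4.13, and between 2.42 and 4.84 in LF pigs, with a median of 3.53. Of the 6 adipocyte markers measured, 1 was called lower, while 20.3% of all genes were called lower. It was CIDEC, a protein of the lipid droplet, at -0.24 (limma BH p = 0.00784). The list had a median difference of -0.13, with 5 of the 6 markers below 0 and 1 above. The only kidney marker with a kept probe, AQP2, was lower by -0.63 (limma BH p = 0.000269). Of the remaining lists, none of 4 T and NK cell, 2 B cell, 5 endothelial, 5 fibroblast, 3 muscle, 2 adrenal and 1 erythrocyte markers was called. With arrays centred on spike-in control transcripts, 8 macrophage, 3 T and NK cell, 1 endothelial, 1 fibroblast and 1 adipocyte markers were called higher. None of the adipocyte markers was then called lower. Over all 38142 kept probes, 11039 were called by diet with that centring, and only 1703 of these were lower. With quantile normalization, 1 adipocyte marker was called lower and 1 higher, as with normexp and quantile normalization.

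With the mean of the macrophage markers as a covariate, the median difference of the 8 genes was -0.70, and with the mean of the adipocyte markers it was -0.65, with values between -1.12 and -0.45. Both fits were chosen after seeing the data. Within HF pigs, after subtracting line means, the mean of the 8 genes correlated with the mean of the adipocyte markers (r = 0.80, permutation p = 1e-05, the smallest that 100000 permutations can give, BH p = 8e-05 over 8 such relations, rho = 0.75, permutation p = 8e-05) and inversely with that of the macrophage markers (r = -0.53, permutation p = 0.0109, BH p = 0.0436, rho = -0.50, permutation p = 0.0164). Without the 2 pigs farthest from the median of the marker mean the values were 0.70 and -0.58, and with slide means subtracted they were 0.85 and -0.50. Within LF pigs neither relation passed, with r = 0.42 (permutation p = 0.0478, BH p = 0.0835, rho = 0.41, permutation p = 0.052) for adipocyte and r = -0.30 (permutation p = 0.133, BH p = 0.178, rho = -0.17, permutation p = 0.414) for macrophage markers, and without the 2 farthest pigs r was 0.38 and -0.17. The part of the cell makeup in the differences was not tested.

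The 8 genes had 38 kept probes in all. The 27 probes outside the choice read the same genes in the same RNA, so they give no independent support for the differences. Of these 27 probes, 26 were lower in HF pigs, where the median difference over all kept probes was -0.023. The 8 CISD1 probes lay between -0.61 and -0.58 and the 8 CD164 probes between -0.56 and -0.46. These probes are only partly separate measurements, because some overlap in sequence, by up to 42 bases in CISD1 and 33 in CD164. The 5 PCBD1 probes, between -0.80 and -0.78, hold 3 distinct sequences, since 3 of them, among them the representative probe of the choice, are the same. C10ORF35 and LDHD rested on 1 probe each.

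**Figure D3:**
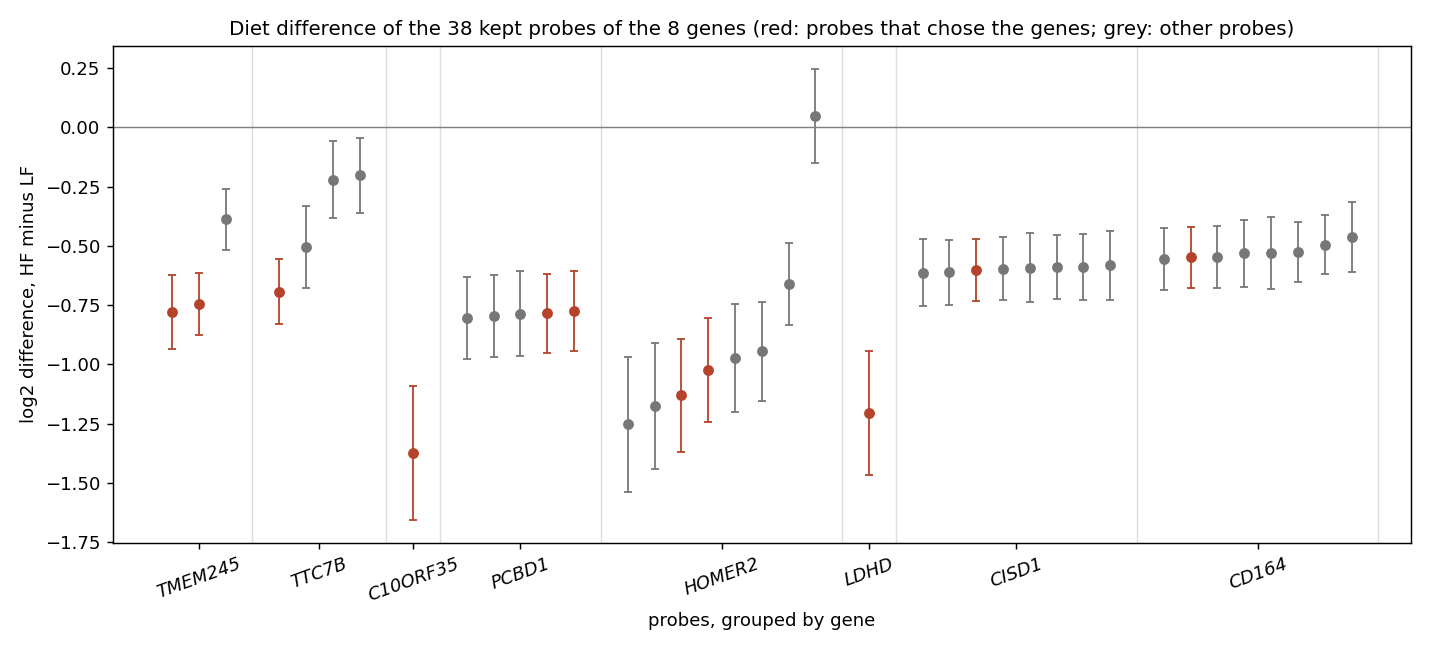
Log2 difference between HF and LF pigs (vertical axis) of each of the 38 kept probes, grouped by gene (horizontal axis), with limma's 95% interval, drawn as a description because the genes were chosen for this contrast. The red points are the 11 probes of the choice, and 1 grey point of HOMER2 lies above 0.

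Probes disagreed in 3 genes. For HOMER2, 7 of 8 probes lay between -1.25 and -0.66, but O13687 gave 0.049 (standard error 0.099). For TTC7B the other 3 probes gave -0.51, -0.22 and -0.20, against -0.69 for the probe of the choice. For TMEM245 the third probe gave -0.39. The sequences of the diverging HOMER2 probe and of a diverging TTC7B probe are shown for comparison with those above, with which they share no run over 8 bases.
HOMER2, O13687: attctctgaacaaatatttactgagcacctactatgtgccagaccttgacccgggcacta
TTC7B, O12509: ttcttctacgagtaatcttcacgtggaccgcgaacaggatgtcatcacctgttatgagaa

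The diverging HOMER2 probe shared a run of at least 14 bases, on either strand, with 12 other probe sequences of the array that are not HOMER2 probes, whereas the median over kept probes was 2 such sequences and 2.49% of kept probes had as many or more. The representative HOMER2 probe shared such a run with 3 others. The part of these shared bases in the measured signal was not tested.

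Whether a diverging probe followed the representative probe of its gene from pig to pig was measured over the 48 pigs, after subtracting the mean of each diet and line group, in 5 relations. The diverging HOMER2 probe did not follow it, with r = -0.087 (permutation p = 0.556, BH p = 0.556, rho = -0.097, permutation p = 0.512) and r = -0.11 without the 2 pigs farthest from the median, and 0.10 with slide means subtracted. The 3 TTC7B probes correlated with the representative one with r = 0.50 for A_72_P192437 (permutation p = 0.00027, BH p = 0.000675, rho = 0.45, permutation p = 0.00146), r = 0.40 for A_72_P040391 (permutation p = 0.00698, BH p = 0.0116, rho = 0.35, permutation p = 0.0173) and r = 0.37 for O12509 (permutation p = 0.0135, BH p = 0.0169, rho = 0.33, permutation p = 0.0242). Without the 2 farthest pigs they were 0.41, 0.32 and 0.31, and with slide means subtracted 0.51, 0.38 and 0.37. The third TMEM245 probe gave r = 0.63 (permutation p = 1e-05, BH p = 5e-05, rho = 0.69, permutation p = 1e-05), 0.62 without the 2 farthest pigs and 0.64 with slide means subtracted.

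The line of the pig was not used in the choice, and none of the 8 genes was called for it, where 3.28% of all genes at their brightest kept probe were called. C10ORF35 had the largest line difference, with means of 0.48 in the low RFI and 0.18 in the high RFI line, or 0.30 (95% interval 0.020 to 0.58, limma raw p = 0.0365, BH p = 0.333). TMEM245 was 0.15 higher in low RFI pigs (95% interval 0.016 to 0.28, limma raw p = 0.0282, BH p = 0.293) and CISD1 0.14 higher (95% interval 0.011 to 0.27, limma raw p = 0.0339, BH p = 0.32). These 3 genes had an unadjusted p under 0.05 and did not pass the correction. LDHD went the other way, at 2.86 in the low RFI and 3.11 in the high RFI line, a difference of -0.24 (95% interval -0.51 to 0.017, limma BH p = 0.436).

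The other 4 genes had line differences of 0.0066 for TTC7B, 0.035 for HOMER2, 0.065 for CD164 and 0.13 for PCBD1, with limma BH p of at least 0.578. For TTC7B the direction turned under 4 of the alternative settings, with values down to -0.018, all far inside its 95% interval of -0.13 to 0.15.

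The diet difference was described in each line. In low RFI pigs the differences of the 8 genes lay between -1.29 and -0.54 with a median of -0.69, and in high RFI pigs between -1.58 and -0.53 with a median of -0.84. The interaction of diet and line was tested in the same limma fit, and none of the 8 genes was called, nor by a 2-way ANOVA without moderation. Over all 38142 probes limma made 0 calls, which is 0% of them. An unadjusted p under 0.05 was found for 826 probes, a share of them that is itself below 0.05. Of the 8 genes, 6 had the larger fall in high RFI pigs.

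C10ORF35 differed most, with -1.17 in the low RFI and -1.58 in the high RFI line, an interaction of 0.41 (95% interval -0.16 to 0.97, limma raw p = 0.154). PCBD1 gave -0.65 and -0.90, an interaction of 0.24 (95% interval -0.093 to 0.58, limma raw p = 0.153). LDHD, with -1.29 and -1.12, went the other way (interaction -0.17, 95% interval -0.69 to 0.35, limma raw p = 0.514). In HF pigs of high RFI the LDHD values spread widest, with an SD of 0.59 (n = 12) against 0.36 (n = 12) in HF pigs of low RFI, and 6 of the 12 lay below every LF pig of their line against 12 of 12 in low RFI. The count of 6 was set by high RFI replicate 12 on the LF diet, at 2.55, where the next lowest LF pig of that line was at 3.16.

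Pigs on the same diet differed among themselves, and many pairs of the 8 genes varied together, more of them passing in HF than in LF pigs. For each diet, after subtracting the mean of each line, the correlation over 24 pigs was computed for the 28 pairs of genes, with BH adjustment over the 56 pairs of both diets. In HF pigs all 28 pairs were positive, with r between 0.27 and 0.84 and a median of 0.57, and 20 pairs had a BH p under 0.05. In LF pigs 27 pairs were positive, r lay between -0.10 and 0.73 with a median of 0.41, and 11 pairs passed. Without the 2 pigs farthest from the median, 3 of the 20 and 2 of the 11 pairs no longer passed. With the spike-in centring the diets were close, with 19 passing pairs in HF and 17 in LF pigs. For 6 of the 8 genes the SD was larger in HF than in LF pigs. A member and a gene outside the choice had a median r of 0.035 in HF pigs and 0.094 in LF pigs, over 9416 other genes. Regardless of sign, the median r of such pairs was 0.22 in HF pigs and 0.20 in LF pigs. The pairs share arrays and so share any error of an array. In HF pigs the mean of the 8 genes also followed the means of the adipocyte (r = 0.80) and macrophage markers (r = -0.53). The part of the cell makeup in these pairs was not tested.

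**Figure D4:**
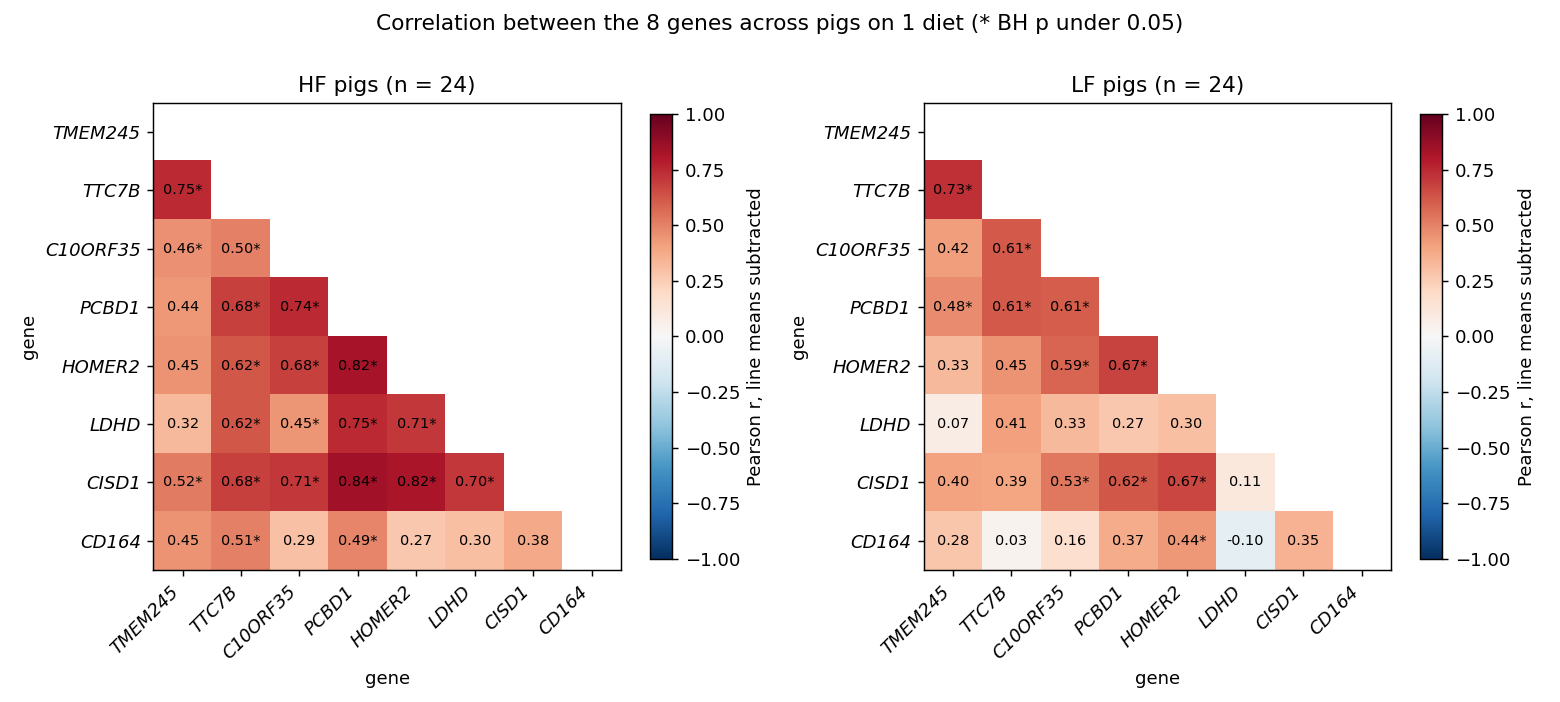
Pearson correlation (colour and printed value) between each pair of the 8 genes over the 24 HF pigs (left) and the 24 LF pigs (right), line means subtracted, with an asterisk where the BH adjusted permutation p was under 0.05. PCBD1, HOMER2 and CISD1 form the strongest block in HF pigs, and LDHD and CD164 have the palest rows in LF pigs.

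The closest genes in HF pigs were PCBD1 and CISD1, with r = 0.84 (permutation p = 2e-05, BH p = 0.00028, rho = 0.82, permutation p = 2e-05), PCBD1 and HOMER2, with r = 0.82 (permutation p = 1e-05, BH p = 0.00028, rho = 0.81, permutation p = 1e-05), and HOMER2 and CISD1, with r = 0.82 (permutation p = 2e-05, BH p = 0.00028, rho = 0.82, permutation p = 2e-05). Without the 2 pigs farthest from the median of the first gene these values were 0.80, 0.75 and 0.78, and with slide means subtracted 0.82, 0.81 and 0.74. In LF pigs the same pairs gave 0.62 (permutation p = 0.00179, BH p = 0.0059, rho = 0.73, permutation p = 0.00016), 0.67 (permutation p = 0.00025, BH p = 0.00125, rho = 0.70, permutation p = 0.00031) and 0.67 (permutation p = 0.00068, BH p = 0.00254, rho = 0.73, permutation p = 8e-05), and 0.67, 0.59 and 0.69 without the 2 farthest pigs. In each diet these pairs passed, so that a BH4 enzyme, a membrane adaptor and an outer mitochondrial membrane protein varied together from pig to pig.

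TMEM245 and TTC7B also passed in both diets and had the highest r of the 28 pairs in LF pigs, with r = 0.75 in HF pigs (permutation p = 1e-04, BH p = 8e-04, rho = 0.71, permutation p = 0.00024) and r = 0.73 in LF pigs (permutation p = 5e-05, BH p = 0.00056, rho = 0.66, permutation p = 0.00064). Without the 2 farthest pigs they were 0.69 and 0.70, and with slide means subtracted 0.69 and 0.72. LDHD had a median r with the other 7 genes of 0.62 and 5 passing pairs in HF pigs, against 0.27 and 0 pairs in LF pigs. With slide means subtracted these were 0.65 with 4 pairs and 0.21 with 1 pair. CD164 had a median r of 0.38 and 2 passing pairs in HF pigs and of 0.28 and 1 pair in LF pigs. Its values in HF pigs depended on the slides, since with slide means subtracted the median r was 0.58 with 6 passing pairs in HF pigs and 0.24 with 2 in LF pigs. The difference of a correlation between diets was not tested.

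Measures of the arrays were also set against the mean of the 8 genes, and in HF pigs 1 of them, the number of kept probes well above background, passed the correction by rho but not by r. The number of kept probes well above background gave r = -0.48 (permutation p = 0.0191, BH p = 0.0509, rho = -0.50, permutation p = 0.0165, rho BH p = 0.044) and -0.33 without the 2 farthest pigs, and the median signal of the array gave r = -0.40 (permutation p = 0.0522, BH p = 0.0835, rho = -0.40, permutation p = 0.0607) and -0.36. In LF pigs these were -0.095 (permutation p = 0.643, BH p = 0.735, rho = -0.095, permutation p = 0.651) and -0.050 (permutation p = 0.823, BH p = 0.823, rho = -0.054, permutation p = 0.81), and -0.030 and -0.035 without the 2 farthest pigs. Their part in the correlations between genes was not tested.

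Of 9416 genes outside the choice, the 5 whose deviations from the diet and line group means were most like the mean of the 8 genes over the 48 arrays were VDAC1 (r = 0.82), BLVRA (0.81), DNAJC19 (0.80), CS (0.79) and MRPL4 (0.79), where the median over the 9416 genes was 0.084. Each of the 8 genes correlated with the mean of the others with r between 0.36 for CD164 and 0.84 for PCBD1. The co-variation was thus not particular to the 8 genes. VDAC1 is a channel of the outer mitochondrial membrane, BLVRA reduces biliverdin, DNAJC19 belongs to the mitochondrial import machinery, CS is citrate synthase and MRPL4 a protein of the mitochondrial ribosome. Within HF pigs their r lay between 0.79 for BLVRA and 0.89 for VDAC1, and within LF pigs between 0.67 for CS and 0.84 for BLVRA. All 5 were also called lower in HF pigs, from -0.51 for VDAC1 to -0.31 for MRPL4, with a highest limma BH p of 0.000385 for CS. The 5 genes least like the mean were UNK (r = -0.69), VWCE (-0.63), ZFC3H1 (-0.63), OBSL1 (-0.62) and IFNAR1 (-0.61), of which the first reached -0.91 in HF and -0.41 in LF pigs. VWCE (0.64), OBSL1 (0.41), UNK (0.20) and IFNAR1 (0.16), the last a receptor chain for type I interferons, were called higher in HF pigs, and ZFC3H1, at 0.11, was not. These genes were picked for their r, which is why no p is given for it.

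The other genes of the pathways to which the 8 genes belong were read from lists, at the brightest kept probe of each gene. Of 65 listed genes, 45 had a kept probe, and 17 of these were called lower and 0 higher in HF pigs, while 20.3% of all genes were called lower. The median difference over the 45 genes was -0.13, and over all genes -0.048. With the spike-in centring, which raised the median difference of all probes by 0.11, 5 of the 17 genes were still called, though all 17 stayed below 0. Over all 38142 kept probes, lower calls fell from 5912 to 1703 with that centring.

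**Figure D5:**
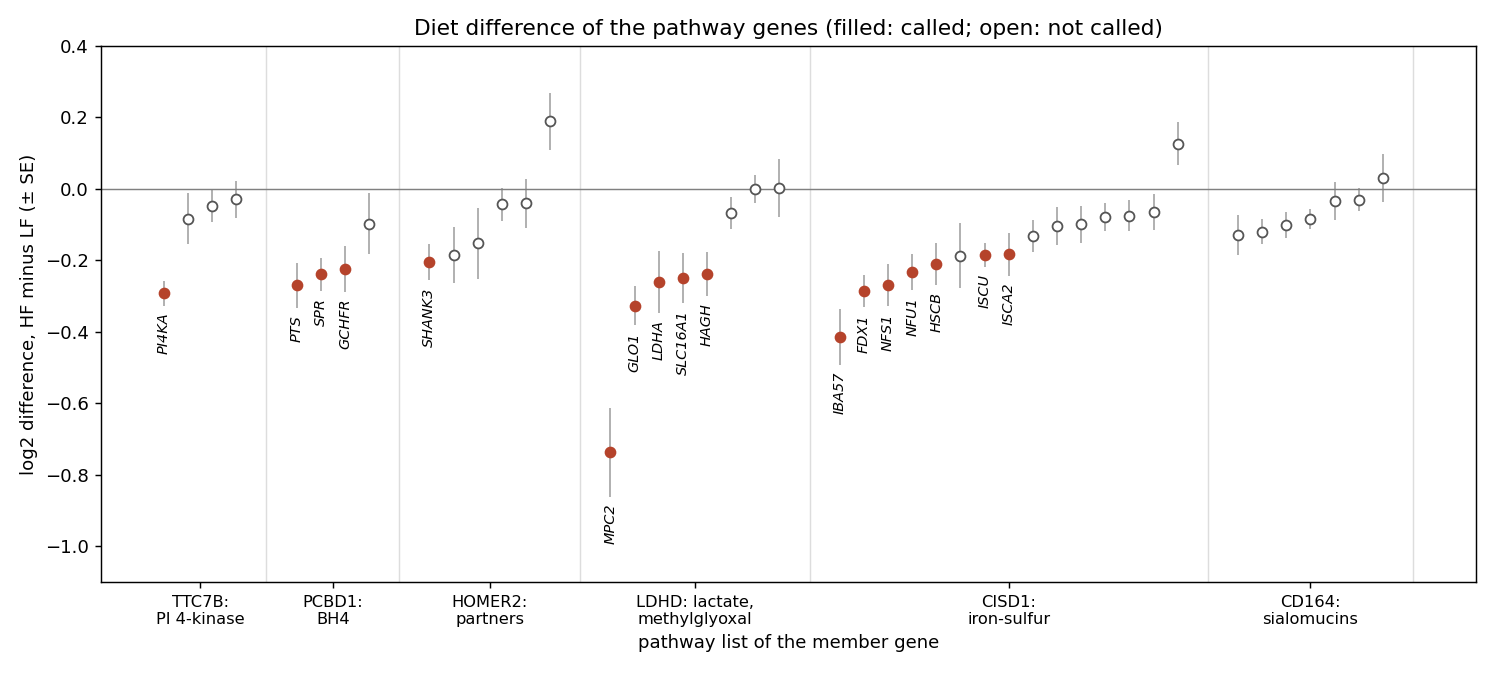
Log2 difference between HF and LF pigs with its standard error (vertical axis) of the pathway genes with a kept probe, grouped by the member gene whose list they belong to (horizontal axis), filled where called by limma. FAM241A, the only measured gene in the list of C10ORF35, is not drawn. The lists of PCBD1, LDHD and CISD1 hold 15 of the 17 called genes, and the list of CD164 holds none.

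In the list of TTC7B, 1 of 4 measured genes was called lower, PI4KA, the kinase of the complex. It was 7.04 ± 0.098 on the HF diet and 7.33 ± 0.13 on the LF diet (SD, n = 24 each), which differed by -0.29 (standard error 0.035, limma BH p = 6.48e-08), and the LF mean exceeded each of the 24 HF pigs. Of its 7 kept probes, 5 were called lower. The adaptor subunits FAM126A (-0.029) and FAM126B (-0.083) and the regulator TMEM150A (-0.048) were not called, and their median together with PI4KA was 0.042 with the spike-in centring.

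The BH4 list of PCBD1 had 3 of 4 measured genes called lower. With the spike-in centring, where lower calls fell over all probes, 0 were. PTS, which makes the pterin intermediate, differed by -0.27 (standard error 0.063, limma BH p = 0.00104), SPR, the sepiapterin reductase, by -0.24 (standard error 0.046, limma BH p = 0.00012) and GCHFR, the feedback regulator of the first enzyme, by -0.22 (standard error 0.063, limma BH p = 0.00605). QDPR, which recycles BH4 in the step after PCBD1, gave -0.097 and was not called. In this list 2 genes were also called for line, in opposite directions. GCHFR was 3.46 ± 0.24 (SD, n = 24) in the low RFI and 3.24 ± 0.25 (SD, n = 24) in the high RFI line (limma BH p = 0.0477), and PTS was 4.47 ± 0.26 (SD, n = 24) and 4.68 ± 0.26 (SD, n = 24) (limma BH p = 0.0464). No other gene of the pathway lists was called for line.

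Among 6 measured partners of HOMER2, SHANK3, a scaffold with which Homer proteins assemble, was called lower at -0.21 (standard error 0.051, limma BH p = 0.00177). ITPR1, the inositol trisphosphate receptor, gave -0.041, and the 4 NFAT factors lay between -0.19 and 0.19 without a call. The direction of this list depended on the scaling, since its median of -0.097 became 0.0098 with the spike-in centring.

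The list of LDHD, with lactate and methylglyoxal genes, had 5 of 8 measured genes called lower. With the spike-in centring, where lower calls fell over all probes, 2 were. MPC2, a subunit of the mitochondrial pyruvate carrier, had the largest difference of all the pathway genes. It was 3.51 ± 0.44 on the HF diet and 4.25 ± 0.44 on the LF diet (SD, n = 24 each), which differed by -0.74 (standard error 0.12, limma BH p = 1.92e-05), with 23 of 24 HF pigs below the LF mean, and was the only pathway gene past a 1.5-fold threshold. The glyoxalases that lead to D-lactate were both called, GLO1 at -0.33 (standard error 0.054, limma BH p = 1.44e-05) with all 12 of its kept probes and HAGH at -0.24 (standard error 0.062, limma BH p = 0.00312). LDHA, the L-lactate dehydrogenase subunit, differed by -0.26 (limma BH p = 0.018) and the transporter SLC16A1 by -0.25 (limma BH p = 0.00533), whereas LDHB gave 0.000051 and the transporters SLC16A3 and SLC16A7 gave -0.067 and 0.0019.

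For CISD1, 15 genes of the CDGSH family and of iron-sulfur cluster assembly were measured, and 7 were called lower. With quantile normalization 5 were called lower and 1 higher. With the spike-in centring, where lower calls fell over all probes, 2 were called lower and 1 higher. With that centring 9 of the 15 genes lay below 0. The 7 genes were IBA57 (-0.41, limma BH p = 7.85e-05), which acts late in assembly, the ferredoxin FDX1 (-0.29, limma BH p = 6.73e-06), the sulfur donor NFS1 (-0.27, limma BH p = 0.000562), the carrier NFU1 (-0.23, limma BH p = 0.000507), the co-chaperone HSCB (-0.21, limma BH p = 0.00512), the scaffold ISCU (-0.18, limma BH p = 5.37e-05) and ISCA2 (-0.18, limma BH p = 0.0172). All 24 HF pigs were below the LF mean for IBA57, FDX1 and ISCU. CISD2, the closest relative of CISD1 that was measured, gave -0.099 on a dim probe that was well above background on 40 arrays, and was not called. NUBPL, at 0.13, was the gene of this list with the highest value and was not called.

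None of the 7 measured sialomucins and lysosomal membrane genes in the list of CD164 was called at its brightest kept probe, and their differences lay between -0.13 for LAMP2 and 0.030 for CD34. Their median of -0.084 became 0.023 with the spike-in centring. SELPLG (-0.12) and CD63 (-0.084) had a limma BH p of 0.0083 and 0.0177 but did not reach the 1.1-fold threshold. SCARB2, a lysosomal membrane protein, gave -0.10 (limma BH p = 0.0277) at its brightest probe, while 5 of its 9 kept probes were called lower. FAM241A, the relative of C10ORF35, gave -0.14 and was not called.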

How the data were processed

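One-colour array values of 48 PRAT samples were used. The authors scanned the arrays with Feature Extraction, and the spot intensity values were deposited without normalization between arrays. Per the methods, the authors removed spots by 4 criteria of spot quality, took log2 and centred each array on its median, and deposited these log2 values for 38142 probes. R 2.10.0 is named in the submitters' processing notes. The genome build is not given in the sources used here.

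The entries of the deposited table were matched to spots by their values, within a tolerance of 1e-06 on each array, because the entry name was that of the matched spot in only 2 cases. The log2 of the median spot signal, without background subtraction and minus the array median over 60306 porcine probes, was used. Symbols came from the files' gene names, accessions, synonyms and the study's lists, with RefSeq names of assembly Sscrofa11.1.

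Diet, line and their interaction were fitted with limma 3.58.1 in R 4.3.3 over all kept probes, and a probe was called where raw p was under 0.01, BH p under 0.08 and the fold over 1.1. The code was tested on simulated data. A gene was represented by the brightest of its probes in the choice, or, outside the choice, by its brightest kept probe. Correlations were tested with 100000 two-sided permutations within line, or within diet and line group. The members, pathway lists and markers were chosen with earlier results of these data known. Named were the 8 genes, list genes called by diet or line, the 5 genes most and the 5 least like their mean, and up to 5 genes next to them in the order; list genes without a call, neighbouring genes and CIDEC and AQP2 were named after their values were seen. Of the other named genes in that order, 1 is not reported here.

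Replicate numbers pair no pigs by the labels, and every number lay on 1 slide. Python 3.11.15 with numpy 2.4.6, pandas 2.3.3, scipy 1.17.1 and matplotlib 3.10.9 was used. Nothing states whether pigs of a group were littermates, so p-values measure the spread between these pigs.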

Additional observations from a re-analysis of the deposited data

How the results depend on the processing

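Across 205 values under alternative settings, none of the 8 genes was called for line or for the interaction under any setting run, and the median diet difference of the 8 genes moved by less than the spread between pigs, between -0.84 in high RFI pigs alone and -0.65 with the spike-in centring. The largest difference among the 8 genes, -1.37, became -1.75 with the background-subtracted signal and -1.18 with normexp and quantile normalization. The line difference of TTC7B turned to -0.0014 with quantile normalization, -0.018 with spike-in centring, -0.0042 with normexp and quantile normalization and -0.00765 with array weights. The 17 pathway genes called by diet became 7 with the spike-in centring, of which 5 were lower, and 1 with a fold threshold of 1.5. The share of calls that were lower among all probes was 63.3%, against 48.1% with quantile normalization, 48.3% with normexp, 50.9% and 49.5% with 75th percentile centring of the raw and of the background-subtracted signal, and 15.4% with spike-in centring. In LF pigs the 11 passing pairs became 17 with the spike-in centring and 7 with normexp and quantile normalization, while the 20 of HF pigs became 19 with each. The cause was not tested. The replicate block gave 0 line calls and 0 interaction calls among the 8 genes, a median diet difference of -0.76, changed no call of the 8 genes, and called 19 pathway genes by diet. Deviations of arrays with the same replicate number correlated over 0.1 in 38 of 72 pairs, with a lowest value of -0.27, with a median of 0.12 against -0.011 for other pairs, and 16 of 48 arrays correlated best with their own number. Since each number lay on 1 slide, samples of the same number also share a slide, and the numbers were not taken to pair pigs.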

Other observations

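The genes next to the 8 genes on the chromosome were read from the order of protein-coding genes in the RefSeq pig assembly Sscrofa11.1. Of 16 such neighbours, 10 had a kept probe, and 4 of these were called lower in HF pigs and 0 higher, while 20.3% of all genes were called lower. They were PPIL6, next to CD164, at -0.17 (limma BH p = 4.2e-05), WHAMM and FAM103A1, on either side of HOMER2, at -0.20 (limma BH p = 0.00546) and -0.18 (limma BH p = 0.0319), and TSPAN15, next to C10ORF35, at -0.15 (limma BH p = 0.0163). No measured neighbour differed by more than the -0.21 of C1H6ORF183, next to CD164, which was not called, and the difference of each of the 8 genes was larger. C10ORF35 and PCBD1 lie on the same chromosome with 18 protein-coding genes between them, and CISD1 lies on it too, with 141 genes between it and PCBD1. The 8 genes lie on 4 chromosomes.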
